A study of Mus musculus with 4 samples.

Results

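The response of *Pparg-cKO* ureters to purmorphamine was read from 2 of the 4 two-color arrays of the series, the arrays that the labels give the genotype Pax2-cre/+; Pparg (fl/fl). Each of them held a pool of mutant ureters cultured with DMSO and a pool cultured with purmorphamine, so that 4 pools, 2 per treatment, make up the comparison. The male array was replicate 1 and carried the purmorphamine pool in AlexaFluor647, and the female array was replicate 2 and carried it in AlexaFluor555, so that sex, replicate and dye orientation are the same split. The remaining 2 arrays held the same treatments of control ureters, cre-negative littermates labeled Pparg (fl/?), and are given beside the mutant values. All ureters came from NMRI mice, were explanted at P0 and were cultured for 8 days at the air-liquid interface with DMSO or with 2 µM purmorphamine. The *Pax2-cre* line deletes the floxed exons of *Pparg* in the ureteric epithelium, so that the mesenchyme of the mutants keeps the gene. Each pool held ureters of one sex, their number is not given in the sources used here, and p-values measure only the spread between these pools.

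PPARG is a nuclear receptor that regulates lipid metabolism and, in the urothelium, the differentiation of superficial cells, which line the lumen and cover it with plaques of uroplakins. SHH is made by the urothelium and signals to the mesenchyme around it. There it binds PTCH1, which releases SMO, and GLI factors then change the transcription of targets that include *Ptch1*, the antagonist *Hhip* and *Gli1* itself. Purmorphamine binds and activates SMO, which turns the pathway on without ligand.

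The pools held the cells their labels name. The 10 mesenchymal and the 13 urothelial markers checked were well above background in all 4 mutant pools. *Ddx3y*, a gene of the Y chromosome, had log2 levels of 12.98 and 13.15 in the male pools and was not well above background in the female pools (5.95 and 6.02). *Shh* had log2 levels of 9.64 and 9.46 in the mutant DMSO pools and of 12.54 and 12.41 in the control DMSO pools. The single *Pparg* probe had log2 levels of 15.55 and 15.58 in the mutant DMSO pools and of 14.79 and 15.31 in the control DMSO pools, and it does not check the genotype, since it is not known to lie in the deleted exons. Markers of other cells were also present. Of the markers checked, 16 of 16 of endothelial cells, 18 of 20 of macrophages and leukocytes, 14 of 15 of Schwann cells and neurons, 9 of 10 of fat cells, 8 of 9 of the kidney glomerulus and 10 of 20 of kidney tubules were well above background in all 4 mutant pools. The tubule markers *Slc12a3*, *Slc22a6*, *Slc22a8*, *Kap* and *Pax2* were above background in none of the pools, nor were the B cell marker *Ms4a1* and the fat cell marker *Lep*.

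Purmorphamine raised 374 genes and lowered 568 genes in *Pparg-cKO* ureters at an adjusted p under 0.05 in limma, which is 1.85% and 2.81% of the 20231 genes tested and 4.66% in either direction. Targets of hedgehog signaling, forkhead and other mesenchymal transcription factors, matrix genes and genes of superficial urothelial cells were among the raised genes. Chemokines, cytokines, EGF ligands, macrophage genes and kidney genes were among the lowered genes. The male and female ratios of each called gene had the same sign. The log2 ratio of purmorphamine over DMSO had a median of 1.03 over the raised and of -1.07 over the lowered genes, and 24 raised and 68 lowered genes changed more than 4-fold. Across all genes tested the male and female ratios had a Pearson's r of 0.70, where genes are not independent replicates. The ratio was larger on the female than on the male array for most called genes, with 75 raised and 182 lowered genes showing the reverse. Where a called gene had further tested probes, 293 of these 300 probes changed in the gene's direction.

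The number of calls depended on the intensities that were tested. With the processed signals of the scanner software, limma called 0 genes raised and 0 lowered, with a lowest adjusted p of 0.0852 and with 2277 and 2170 genes at an unadjusted p under 0.05. Without replicate 2, the female array, 45 genes were called raised and 119 lowered. The rule of the study's methods, which asks for a fold change of 1.5 on both arrays and uses no test, gave 597 raised (2.95%) and 738 lowered genes (3.65%), of which 332 and 449 were also called by limma.

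**Figure D1:**
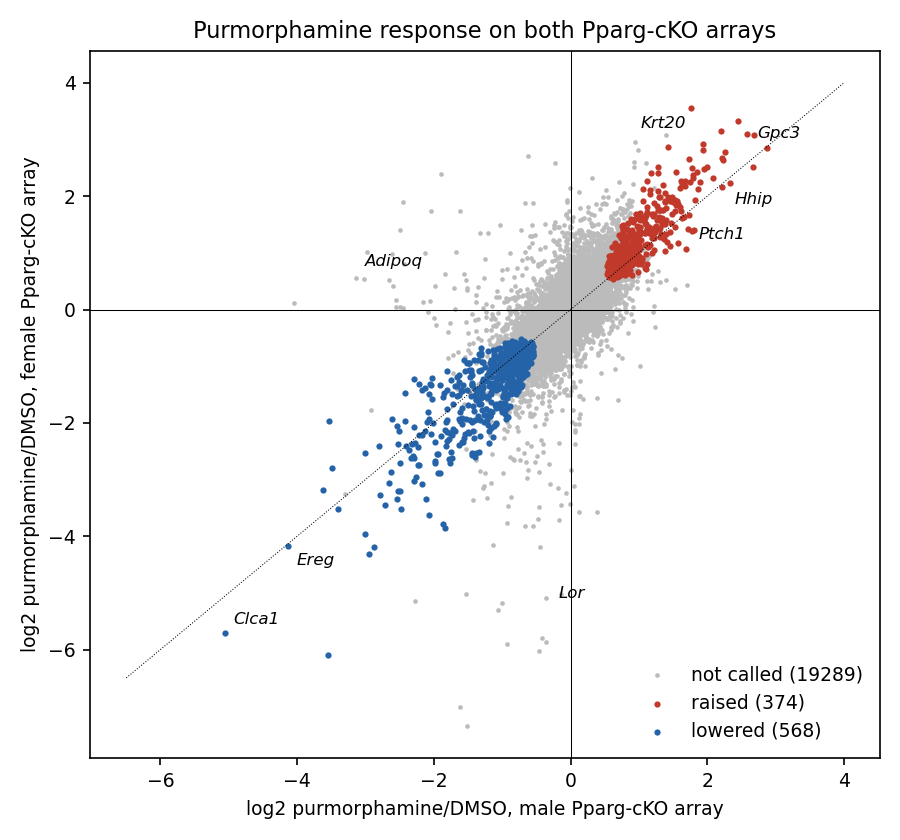
Each point is 1 of the 20231 genes tested, at its log2 ratio of purmorphamine over DMSO on the male (x axis) and female (y axis) *Pparg-cKO* array. Red points are the 374 raised and blue points the 568 lowered genes, the dotted line marks equal ratios, and the gray points far below or to the left of it, such as *Lor* and *Adipoq*, changed on 1 array.

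Direct targets of SHH signaling were among the raised genes. *Hhip*, a membrane protein that captures hedgehog ligands, had log2 levels of 12.93 (male) and 13.26 (female) with DMSO and of 15.15 and 15.43 in the purmorphamine pools. *Ptch1*, the receptor, had log2 levels of 8.54 and 8.83 with DMSO and of 10.17 and 10.45 with purmorphamine. Both genes were higher in both purmorphamine pools than in either DMSO pool. The log2 ratio was 2.19 (standard error 0.20, adjusted p = 0.0174) for *Hhip* and 1.62 (standard error 0.12, adjusted p = 0.0144) for *Ptch1*. *Gli1*, the transcription factor that is also a target, had log2 ratios of 1.31 (male) and 1.37 (female) and missed the threshold (standard error 0.25, adjusted p = 0.056). Its control ratios of 1.57 and 0.56 lay far apart, and they enter the standard error through the estimate of the spread that the arrays share.

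Of the 29 hedgehog pathway genes tested, 5 were raised and 0 lowered, and 18 had positive ratios on both arrays, which 33.9% of all genes had. Without replicate 2, 2 of them were called raised. The median log2 ratio was 0.23, against -0.0024 over all genes. Beside *Hhip* and *Ptch1*, the raised genes included *Scube2*, whose product helps to release the ligand from the cell that makes it, with a log2 ratio of 1.47, and *Hhat*, the acyltransferase that modifies the ligand, with 0.73 and 0.63. *Hhat* was called on 1 of its 3 probes, and the others had log2 ratios of 0.43 and 0.24. Among the 3 ligands *Shh* had log2 levels of 9.64 and 9.46 with DMSO and of 10.18 and 10.82 with purmorphamine. Both purmorphamine pools of *Shh* lay above both DMSO pools, but the log2 ratio of 0.95 (standard error 0.24) was not past the threshold (adjusted p = 0.101), and *Ihh* and *Dhh* had log2 ratios of 0.07 and 0.13. None of the 4 coreceptors and none of the 12 transducers was called. *Smo*, the target of purmorphamine, had a log2 ratio of 0.39, and *Gli2*, *Gli3* and *Sufu* had log2 ratios of 0.40, 0.08 and -0.18. Among the coreceptors *Cdon* had a log2 ratio of 0.60 (adjusted p = 0.081) and *Gas1* one of -0.18, and *Lrp2*, which kidney tubules also express, was not well above background in either purmorphamine pool and was not called (adjusted p = 0.176).

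**Figure D2:**
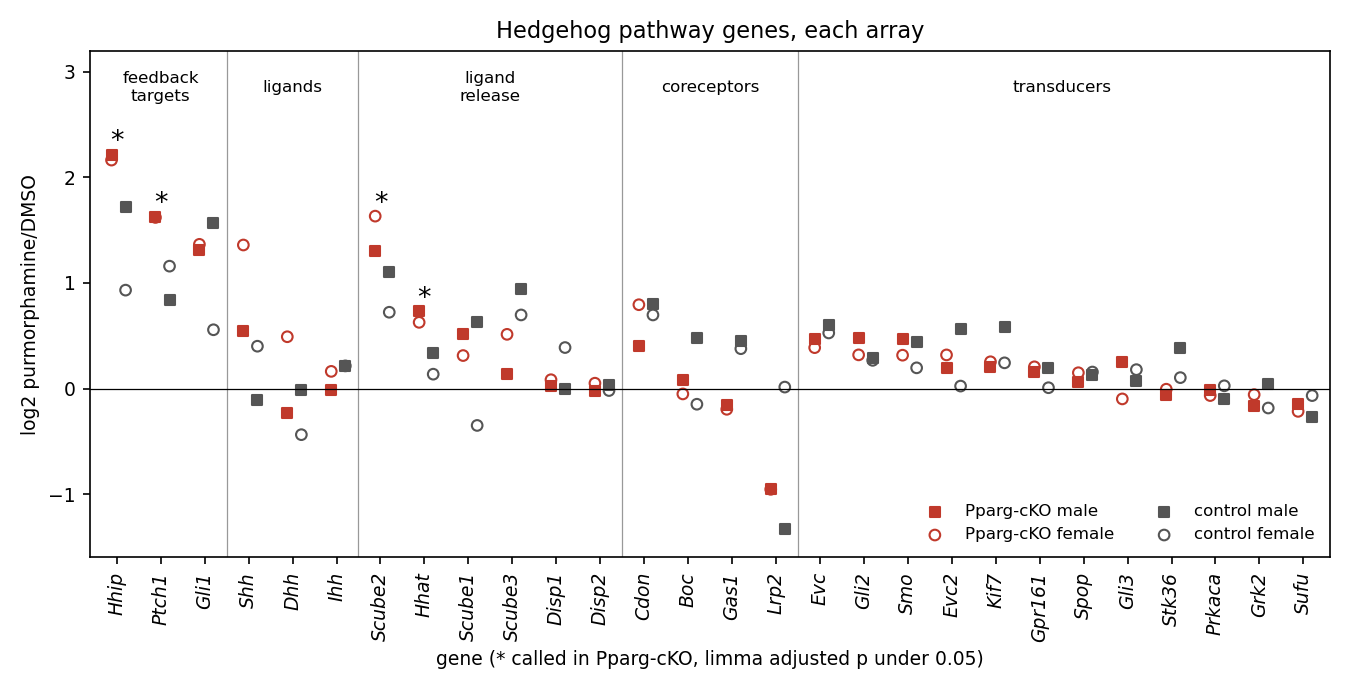
The log2 ratio of purmorphamine over DMSO (y axis) of hedgehog pathway genes (x axis, grouped by role) is shown for each of the 4 arrays, with squares for male and circles for female pools, red for *Pparg-cKO* and gray for control. Stars mark genes called in *Pparg-cKO*, and the ratios of *Hhip*, *Ptch1* and *Gli1* lay at 1.31 or above on both mutant arrays.

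Of 46 transcription factors of the mesenchyme tested, 13 were raised and 1 was lowered, and 5 of the 9 forkhead genes were among the raised. Without replicate 1 the list had 10 raised genes, and without replicate 2 it had 4. *Foxd1*, a factor of stromal cells, had log2 levels of 11.80 and 12.40 in the male and female DMSO pools and of 14.13 and 14.63 in the purmorphamine pools. Its log2 ratio was 2.28 (standard error 0.10, adjusted p = 0.0108), and the pools of the treatments did not overlap. *Foxf1* and *Foxl1* respond to hedgehog signals in the mesenchyme of the gut. *Foxf1* had log2 ratios of 1.17 and 1.36 on the male and female arrays, *Foxl1* had 1.53 and 1.47, and *Foxd2* and *Foxc2* had means of 1.69 and 0.76. *Meox2*, a homeobox gene, had log2 levels of 8.48 and 8.62 with DMSO and of 10.69 and 11.77 with purmorphamine, a log2 ratio of 2.68. The other raised factors were the repressors *Heyl* (1.65), *Twist2* (1.27) and *Hic1* (1.06), and *Tcf21* (0.91), *Nr2f2* (0.87), *Bnc2* (0.75) and *Tbx18* (0.67), all as log2 ratios. *Tbx18* marks the ureteric mesenchyme itself, and the summed log2 level of the 10 mesenchymal markers shifted by 0.66 in male and 0.80 in female pools. The part of this shift in the factors' ratios was not tested.

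Most members of other signaling pathways were not called. The share called was 14% in the BMP and TGF-beta list and 7.69% in the WNT list, against 4.66% of all genes. In the BMP and TGF-beta list 5 of 43 genes were raised and 1 was lowered, but 2 were raised without replicate 1, and none in either direction without replicate 2. *Bmp4*, a ligand of the ureteric mesenchyme that promotes smooth muscle formation, had log2 levels of 14.69 and 14.91 with DMSO and of 15.69 and 15.85 with purmorphamine, and rose by a log2 ratio of 0.97 (standard error 0.14, adjusted p = 0.0388). The ligands *Gdf6*, *Tgfb3* and *Bmp6* rose by log2 ratios of 1.12, 0.90 and 0.71, and *Ltbp2*, which shares the fold of latent TGF-beta binding proteins, by 1.07. The BMP antagonist *Grem1* fell, with log2 levels of 8.68 and 9.62 with DMSO and of 7.78 and 7.72 with purmorphamine and a log2 ratio of -1.40 (adjusted p = 0.0493). In the WNT list 2 of 52 genes were raised, the ligands *Wnt5a* and *Wnt9a* (log2 ratios 0.71 and 0.74), and 2 were lowered, the secreted inhibitors *Wif1* and *Sfrp2* (-1.77 and -0.63). The list's median log2 ratio of 0.03 was close to that of all genes, and it had 0 raised and 3 lowered genes without replicate 1 and none called without replicate 2.

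Growth factor genes were called in both directions. In the list of FGF, IGF, HGF and PDGF signaling 5 of 37 genes were raised and 5 were lowered, against 2 and 3 without replicate 1 and 1 and 0 without replicate 2. *Gpc3*, a glypican of the cell surface that binds hedgehog ligands and is among the most strongly raised genes of the whole set, had log2 levels of 11.90 in both DMSO pools, and of 14.48 in the male purmorphamine pool, and its mean log2 ratio over both arrays was 2.84 (standard error 0.18, adjusted p = 0.0125). The IGF binding proteins *Igfbp6* and *Igfbp3* and the receptors *Igf1r* and *Pdgfrb* rose by log2 ratios of 0.71 to 1.07. The lowered genes were the ligand *Fgf10* (-0.99), the receptor *Fgfr4* (-0.92, with -0.14 and no call on its second probe) and *Etv4*, *Dusp6* and *Etv5* (-1.62, -1.18 and -0.68), which are transcriptional targets of ERK signaling downstream of FGF and EGF receptors. Of the 20 genes of the EGF family list 0 were raised and 4 lowered, with 7 lowered without replicate 1 and 2 without replicate 2. The ligand *Ereg* had log2 levels of 12.09 and 11.91 with DMSO and of 7.96 and 7.74 with purmorphamine, a log2 ratio of -4.15 (standard error 0.43, adjusted p = 0.0203). The ligand *Areg* fell by 1.80 on the log2 scale, and *Errfi1* and *Phlda1*, which are induced by EGF signaling, fell by 1.25 and 1.14.

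Of the retinoic acid and Notch lists 10% and 10.5% of the genes were called, against 4.66% of all genes. *Rbp4*, the carrier of retinol, had log2 levels of 13.91 and 14.05 with DMSO and of 15.64 and 15.72 with purmorphamine and rose by a log2 ratio of 1.70 (standard error 0.12, adjusted p = 0.0144). *Crabp1*, which binds retinoic acid in the cell, fell by 1.47 on the log2 scale. No other gene among the 20 of this list was called, and the synthetic enzymes *Aldh1a1*, *Aldh1a2* and *Aldh1a3* had log2 ratios of -0.74, -0.36 and -0.65 with adjusted p-values of 0.0597, 0.227 and 0.0791. Of 19 Notch genes, 2 targets, *Heyl* and *Hey1* (log2 ratios 1.65 and 0.88), were raised and 0 were lowered.

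Smooth muscle genes had positive ratios with 1 call. Of 33 tested, 32 had positive ratios on both arrays, and 21 of the 21 contractile genes did, while 33.9% of all genes did. The median log2 ratio was 0.51. *Tpm1*, a tropomyosin, was the gene called, with log2 ratios of 0.87 and 0.86 (adjusted p = 0.046), but on 1 of its 5 probes, the others having log2 ratios of -0.28, 0.46, 0.47 and 0.19 and no call. *Acta2*, the smooth muscle actin, had log2 levels of 16.56 and 16.52 with DMSO and of 17.25 and 17.47 with purmorphamine. Its log2 ratio of 0.82 (standard error 0.20) had an adjusted p of 0.0982, and those of *Myh11* (0.79), *Tagln* (0.78), *Cnn1* (0.87) and *Des* (1.40) had adjusted p-values of 0.0554 to 0.0686. Without replicate 1, 8 genes of the list were called raised, and without replicate 2 none was.

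Among 56 collagens and other matrix genes, 11 were raised and 3 lowered, with a median log2 ratio of 0.39. Without replicate 2, 3 were raised and 2 lowered. *Ogn* and *Fmod*, which encode small leucine-rich proteoglycans, had the largest increases of the list. *Fmod* had log2 levels of 11.13 and 9.90 with DMSO and of 13.22 and 12.22 with purmorphamine, and *Ogn* had 12.95 and 12.98 with DMSO and 14.91 and 15.45 with purmorphamine. The treatments did not overlap for either gene, and the log2 ratios were 2.20 and 2.22. The collagens *Col8a2*, *Col11a1* and *Col14a1* rose by log2 ratios of 1.79, 1.41 and 1.26, and the fiber proteins *Mfap5*, *Fbln5* and *Mfap4* by 1.71, 1.42 and 1.03. *Timp3*, an inhibitor of metalloproteinases bound to the matrix, rose by 1.64, while *Mmp3*, *Mmp9* and *Timp1*, which inflammatory signals induce, fell by 2.62, 2.40 and 1.98 on the log2 scale. *Col1a1* and *Col3a1*, the main fibrillar collagens, had log2 ratios of 0.79 and 0.55 and were not called.

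Genes of superficial urothelial cells were called most often among the lists of epithelial genes. Of 41 tested, 19 were raised and 2 lowered, and the study names many of them for these cultures, so that their direction is not independent evidence. Uroplakins assemble into the plaques of the luminal membrane. *Upk1a* had log2 levels of 13.82 (male) and 13.74 (female) with DMSO and of 15.68 and 16.16 with purmorphamine. *Upk1b* had log2 levels of 13.47 and 13.49 with DMSO and of 15.05 and 15.35 with purmorphamine. Neither gene's treatments overlapped. The log2 ratios were 2.14 (standard error 0.16, adjusted p = 0.0144) for *Upk1a* and 1.72 (standard error 0.12, adjusted p = 0.0142) for *Upk1b*. *Upk3b* and *Upk2* rose by log2 ratios of 1.44 and 0.84, and *Upk3a*, whose log2 levels of 15.83 and 15.64 with DMSO were close to the control levels of 15.88 and 16.08, had a log2 ratio of 0.47 (adjusted p = 0.0996).

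*Krt20*, the keratin of superficial cells, had log2 levels of 10.03 and 10.21 with DMSO and of 11.97 and 13.13 with purmorphamine, a log2 ratio of 2.43 (standard error 0.24, adjusted p = 0.0185). *Hsd17b2*, an enzyme that oxidizes sex steroids, had log2 levels of 8.62 and 8.46 with DMSO and of 10.55 and 11.28 with purmorphamine, a log2 ratio of 2.38 (adjusted p = 0.0179). The levels of *Krt20* in the mutant purmorphamine pools stayed below those of the control DMSO pools (13.62 and 14.03), whereas those of *Upk1a* lay above them (14.86 and 15.38). The genotypes were never hybridized to the same array, so these levels are set side by side without a test. Further raised genes were *Cyp4f15* (log2 ratio 2.07), *Sptssb*, a subunit of serine palmitoyltransferase (1.99), *Fam25c* (1.57), *Rab27b*, a GTPase of vesicle transport (1.42), *Snx31* (1.38), *Psca* (1.37), *Fa2h*, the fatty acid 2-hydroxylase (1.31), *Ttr* (1.24) and *Ly6d* (0.85). Of the 10 regulators in the list, *Grhl3*, a factor of superficial cell differentiation, was raised (log2 levels 13.37 and 13.74 with DMSO, 14.22 and 14.39 with purmorphamine). The lowered genes were *Fgl1* and *Bpifb1* (-1.48 and -0.96), which are secreted proteins. The summed log2 level of the 13 urothelial markers shifted by 0.119 in male and -0.115 in female pools. With either array left out, 15 (without replicate 1) and 6 (without replicate 2) of the 41 were called raised.

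Basal cell genes had few calls, except without replicate 1, where 5 were lowered and 1 raised. Of 22, 0 were raised and 1 was lowered, *Krt15*, with log2 levels of 14.89 and 15.42 with DMSO and of 13.78 and 13.73 with purmorphamine (log2 ratio -1.40, adjusted p = 0.0246). *Krt5* and *Krt14*, the keratins of basal cells, had male log2 ratios of -0.59 and -0.48, female ones of -1.85 and -1.55, and adjusted p-values of 0.104 and 0.107. *Trp63*, the transcription factor of basal cells, had log2 ratios of -0.57 and -0.62 (adjusted p = 0.0554). The pan-urothelial list of 13 genes had a median log2 ratio of 0.04, with 0.17 in male and -0.11 in female pools, and *Epcam*, an adhesion molecule of epithelia, fell by 0.81 on the log2 scale in it.

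**Figure D3:**
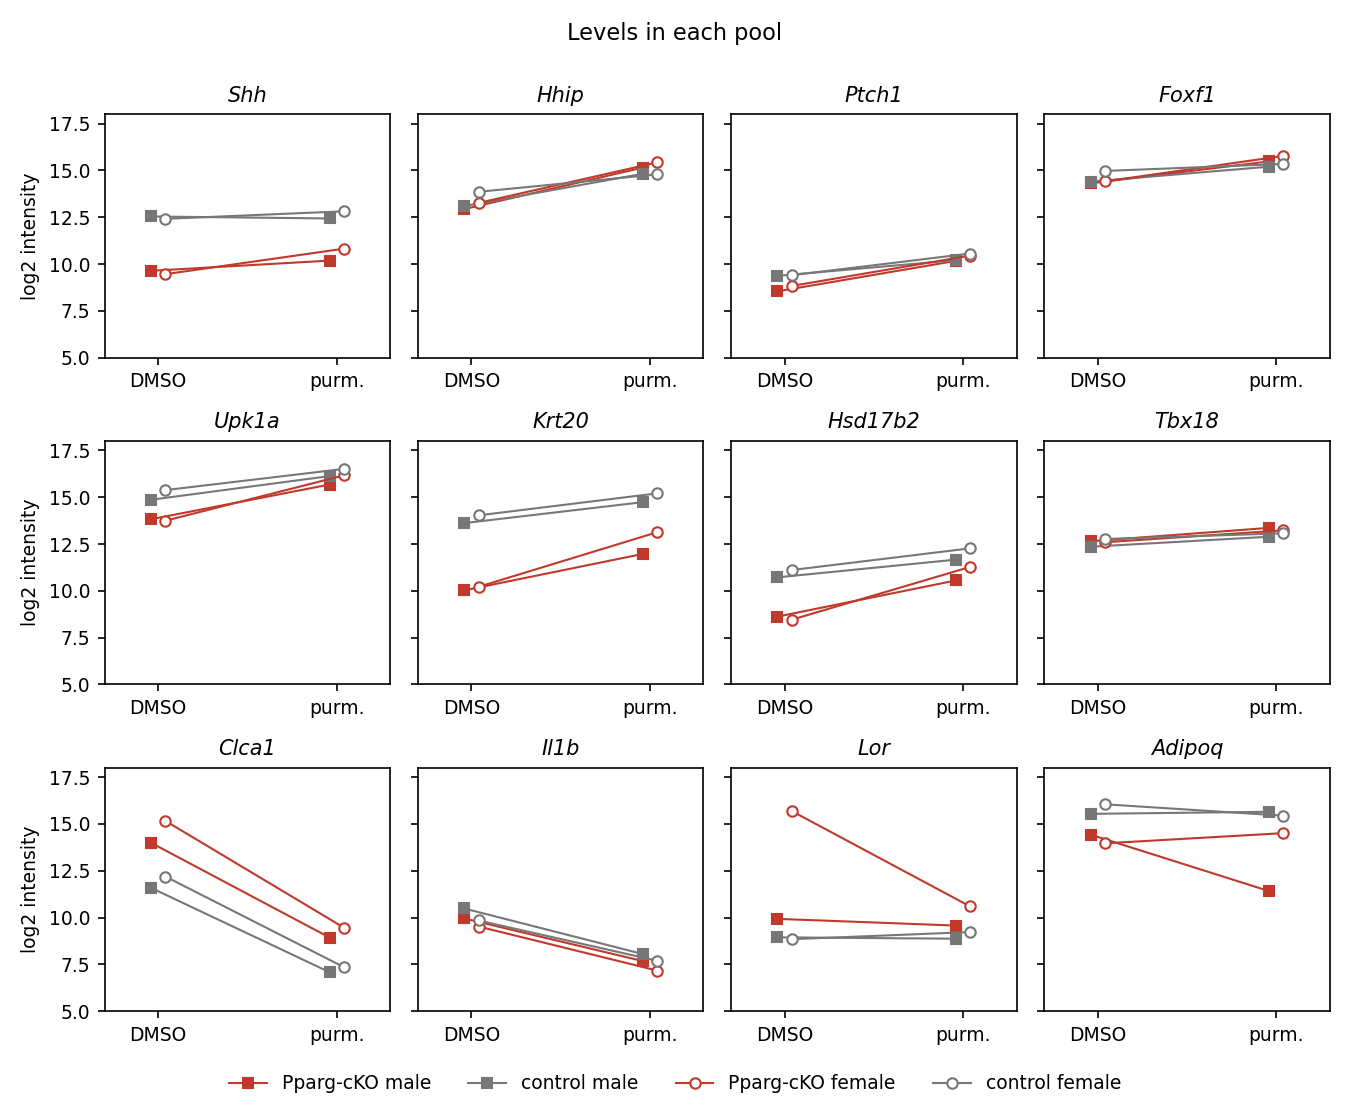
Lines join the log2 level (y axis) of a gene in the DMSO pool to that in the purmorphamine pool (purm.) of the same array, in red for *Pparg-cKO* and gray for control, with squares for male and open circles for female pools. *Upk1a* and *Hhip* rose and *Clca1* fell in both mutant lines, *Lor* fell from 15.69 to 10.60 in the female line and from 9.93 to 9.58 in the male one, and *Adipoq* fell in the male line.

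Genes of squamous and stressed epithelium separated the arrays. Of 45 tested, 2 were raised and 8 lowered, with median log2 ratios of -0.36 (male) and -1.30 (female). The lowered genes were the desmosomal *Dsc1*, the transglutaminase *Tgm1*, the protease inhibitors *Serpinb2* and *Serpinb5*, the keratins *Krt6a*, *Krt4* and *Krt78* and the envelope gene *Sprr2a1*. *Dsc1* had log2 levels of 10.05 and 11.47 with DMSO and of 8.18 and 7.69 with purmorphamine, and was not well above background in any control pool. *Cldn1*, a claudin of tight junctions, and *Tgm5* rose by log2 ratios of 1.61 and 1.38. The study describes keratin and cornification genes for these cultures, and this list is therefore not independent of them.

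For *Lor* and *Krt1* the female DMSO pool had the highest level, followed by the female purmorphamine pool. *Lor*, which encodes the main protein of the cornified envelope, had a log2 level of 15.69 in the female DMSO pool and of 9.93, 9.58 and 10.60 in the male DMSO, male purmorphamine and female purmorphamine pools. *Krt1*, a keratin of cornifying epithelium, had a log2 level of 14.46 in the female DMSO pool and of 7.25, 7.11 and 9.44 in the other pools in the same order. In 24 genes, grouped after their values were seen, the female log2 ratio lay more than 3 below the male one, and their median log2 level with DMSO was 7.17 in male and 12.58 in female ureters. They include *Lor*, *Krt1*, *Krtdap*, *Sprr2e* and late cornified envelope genes such as *Lce1f*, the neutrophil and stressed epithelium genes *S100a8* and *S100a9*, and the stefins *Stfa1*, *Stfa2* and *Stfa3*, cysteine protease inhibitors, and many have near-identical copies that a probe may not separate. None of the 24 was called, and their median log2 ratios were -0.45 (male) and -4.17 (female). Both follow in part from the selection, since a gap between the arrays also widens the standard error. Of these 24 genes, 4 belong to the squamous list. The calls among the 45 genes of that list also depended on which mutant array was left out, and its median log2 ratios were -0.36 (male) and -1.30 (female). Whether the female DMSO pool of cultures differed from the others before treatment was not tested.

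Genes of mucosal defense and cytokines held more lowered members than any other list. Of 63 tested, 0 were raised and 21 lowered, 57 had negative ratios on both arrays (36.1% of all genes did), and the median log2 ratio was -1.35. Chemokines made up 10 of the 21. *Clca1*, a secreted protein of mucous epithelia that modulates chloride channels, had the largest mean decrease of all called genes. Its log2 levels were 13.99 and 15.17 with DMSO and 8.94 and 9.47 with purmorphamine, a log2 ratio of -5.38 (standard error 0.19, adjusted p = 0.0108). *Il1b*, a cytokine that starts inflammation, had log2 levels of 9.95 and 9.53 with DMSO and of 7.68 and 7.17 with purmorphamine, a log2 ratio of -2.31 (standard error 0.12, adjusted p = 0.0108). *Cxcl5* and *Cxcl1*, which attract neutrophils, had log2 ratios of -3.53 and -2.18, and *Ccl2*, *Ccl7* and *Ccl8*, which attract monocytes, had log2 ratios of -2.04, -2.49 and -2.33. The chitinase-like *Chil3* of macrophages was called lowered, with a log2 ratio of -6.09 on the female array and a level not well above background in the male purmorphamine pool. *Il11*, a cytokine made by stromal cells, fell from log2 levels of 14.29 and 13.84 to 11.49 and 10.56. The complement gene *C3* and the acute phase genes *Lcn2* and *Saa3* fell by 2.77, 1.67 and 1.22 on the log2 scale. *Tnf* and *Il6* had log2 ratios of -0.53 and -1.62 and were not called (adjusted p = 0.119 and 0.0642), nor was *S100a8*, whose log2 ratios of -0.93 (male) and -5.91 (female) lay far apart. Without replicate 2, 11 genes of the list were called lowered, and without replicate 1, 32.

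Promoter sequences of the hedgehog, mucosal defense and cytokine, squamous and cell cycle lists were searched for short motifs. The RefSeq promoters of GRCm38.p6, from 250 bases before to 50 after the start of 27025 genes, were matched exactly and on both strands. The letters GGGANTTTC, a form of the site of NF-kappaB, were found in 7 of 46 promoters of the mucosal defense and cytokine list (15.2%) and in 1.29% of all promoters. Of these 7 genes, *Cxcl1* and *Cxcl3* were called lowered, and *Cxcl2*, *Il6*, *Reg3g*, *Csf1* and *S100a9* were not. The windows of 4 of them are shown because these are the inflammatory genes whose promoters hold the match nearest to the start. Capitals mark the match, which begins at -71, -97, -73 and -44 from the start of *Cxcl1*, *Cxcl2*, *Cxcl3* and *Il6*, and all of them lie on the plus strand of chromosome 5, at chr5:90891164-90891193, chr5:90903792-90903821, chr5:90786018-90786047 and chr5:30013060-30013089.
*Cxcl1*: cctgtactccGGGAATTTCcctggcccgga
*Cxcl2*: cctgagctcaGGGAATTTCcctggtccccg
*Cxcl3*: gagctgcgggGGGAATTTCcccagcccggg
*Il6*: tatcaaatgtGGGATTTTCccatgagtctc

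The GLI letters GACCACCCA were in 0 of 23 promoters of the hedgehog list and in 0.289% of all promoters, which says only that these letters are not in this window. The AP-1 letters TGACTCA were in 9 of 27 promoters of the squamous list (33.3%) and in 7 of 46 of the mucosal defense and cytokine list (15.2%), the count of the NF-kappaB letters there, against 5.95% of all. The E2F letters TTTGGCGC were in 5 of 45 promoters of the cell cycle list (11.1%) and in 0.585% of all. Genes of 1 family, such as the *Sprr2* genes among the 9 or the *Cxcl* genes above, share sequence and are not independent matches. A match is a description of the sequence and not of binding.

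Cell cycle genes mostly had negative ratios, and most were not called. Of 54 tested, 0 were raised and 6 lowered, so that 11.1% were called, against 4.66% of all genes. On both arrays 47 had negative ratios, which 36.1% of all genes had. The median log2 ratio was -0.62, with -0.37 (male) and -0.84 (female). The lowered genes were *Uhrf1*, which maintains DNA methylation, the ribonucleotide reductase subunit *Rrm2*, *Birc5* and *Cdk1*, which act in mitosis, the replication helicase subunit *Mcm3* and *Ccne1*, the cyclin of S phase entry. The list had 11 lowered genes without replicate 1 and 0 without replicate 2, and further probes of *Cdk1* (log2 ratios -0.35 and -0.35) and *Uhrf1* (-0.67) were not called. *Rrm2* had log2 levels of 14.29 and 14.91 with DMSO and of 13.56 and 13.57 with purmorphamine (log2 ratio -1.03, adjusted p = 0.0459). *Mki67* and *Top2a*, markers of proliferating cells, had log2 ratios of -0.69 and -0.81 and adjusted p-values of 0.200 and 0.0929. *Ccnd1* had a log2 ratio of 0.09.

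Markers of other cells moved as well, and in pools of whole ureters fewer cells of a type and less RNA per cell cannot be told apart. Of 19 macrophage and leukocyte genes 0 were raised and 7 lowered, with 2 lowered without replicate 1 and 1 without replicate 2, and the summed level of the list shifted by -0.85 (male) and -0.67 (female) on the log2 scale. *Mrc1*, a receptor of tissue macrophages, had log2 levels of 14.27 and 14.09 with DMSO and of 12.64 and 12.58 with purmorphamine, and the complement genes *C1qa*, *C1qb* and *C1qc* had log2 ratios of -0.93, -0.99 and -1.03. The part that fewer leukocytes have in the lower cytokine levels was not tested. Of 16 endothelial genes 2 were raised, *Tek*, the receptor of angiopoietins (log2 levels 9.35 and 9.25 with DMSO, 11.10 and 11.49 with purmorphamine), and *Cdh5*, the cadherin of vessels (log2 ratio 1.25), with 1 raised when either array was left out. The summed endothelial level shifted by 0.60 and 0.63. *Angpt4*, a ligand of TEK, was among the 15 most strongly raised genes (log2 levels 9.06 and 8.93 with DMSO, 11.72 and 11.45 with purmorphamine).

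Some kidney markers were well above background in the mutant DMSO pools and were lowered. *Wt1*, a transcription factor of podocytes, had log2 levels of 10.67 and 10.96 with DMSO and of 7.14 and 8.99 with purmorphamine, and its log2 ratio was -2.75 (standard error 0.36, adjusted p = 0.0318). *Umod*, a gene of the thick ascending limb, had log2 levels of 8.74 and 9.21 with DMSO and of 6.78 and 6.66 with purmorphamine. *Slc12a1*, of the same segment, was not well above background in the purmorphamine pools and was at least 2.34-fold lower there. Of 9 glomerular genes 4 were lowered and 1 raised, and of 14 tubular genes 3 were lowered. With either array left out 2 glomerular genes were lowered and 0 raised, and without replicate 2, 1 tubular gene was lowered. The summed levels shifted by -0.91 and -0.73 for the glomerular and by -0.83 and -1.26 for the tubular list on the male and female arrays. The part of kidney cells in the response was not tested.

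Fat cell genes differed between the arrays. Of 9 tested none was called, and the summed level shifted by -2.46 (male) and 0.41 (female) on the log2 scale. *Adipoq*, the hormone of fat cells, had log2 levels of 14.43 (male) and 13.97 (female) with DMSO and of 11.42 and 14.51 with purmorphamine, so that the male purmorphamine pool stood apart from the other 3. Without replicate 2, 6 of the 9 were called lowered. Of the 46 genes of lipid handling, which hold known targets of PPARG and several fat cell genes, 1 was raised, the kinase *Pdk4* (log2 ratio 0.82), and 1 was lowered. In the cholesterol part of the list 11 of 12 genes had negative ratios on both arrays (36.1% of all genes did), with a median log2 ratio of -0.60. The Schwann cell and neuron list shifted by 0.69 and 1.40 in its summed level, with *Uchl1* called raised (log2 ratio 1.54), 7 genes raised without replicate 1 and 0 without replicate 2.

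**Figure D4:**
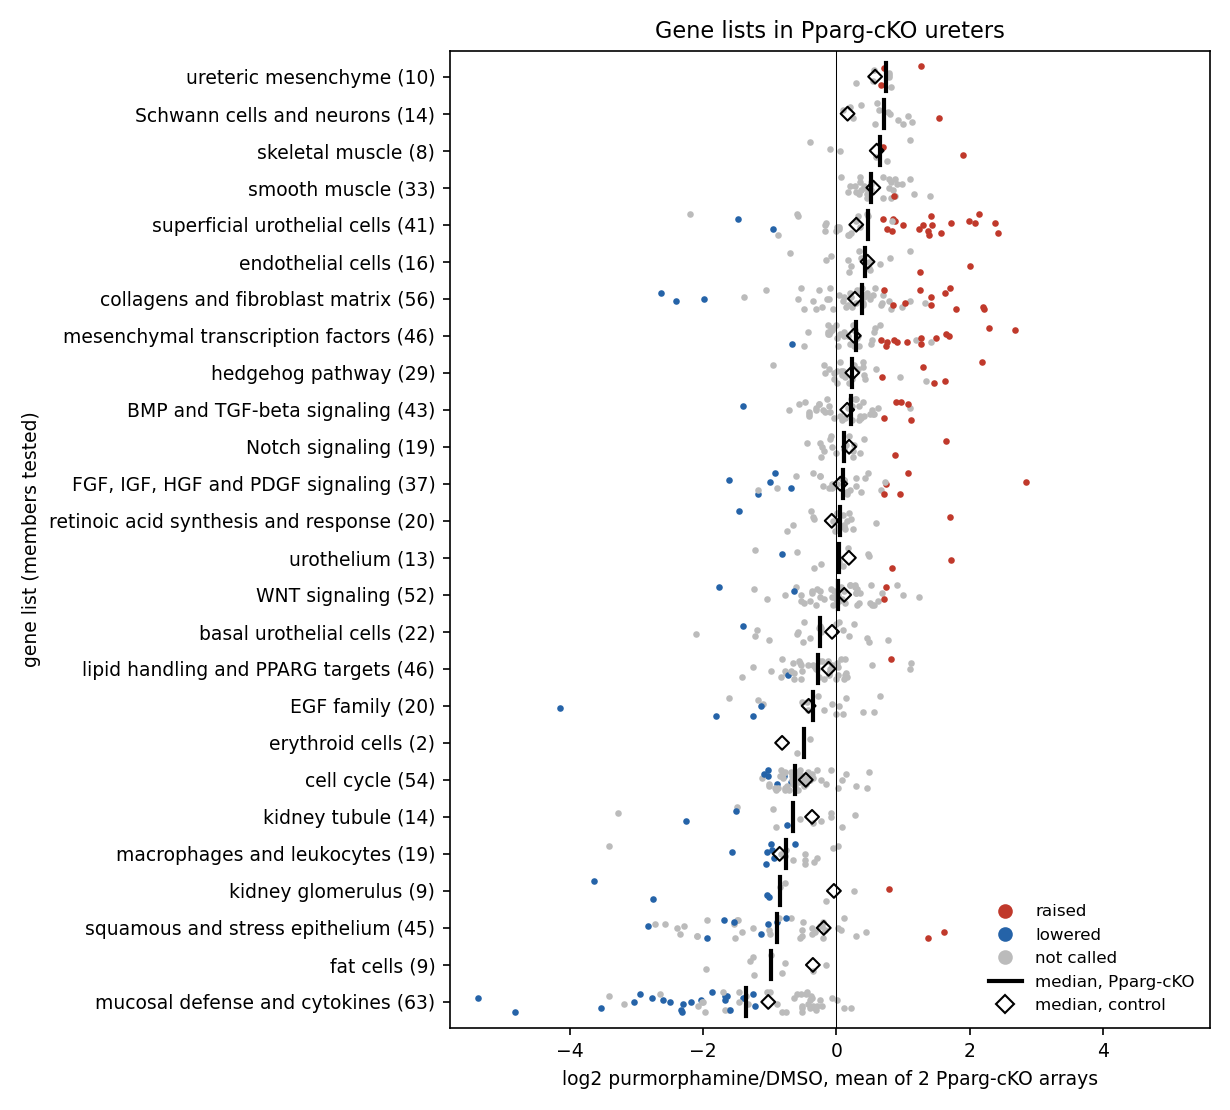
Each point is a tested member of a gene list (y axis, number tested in brackets) at its mean log2 ratio of purmorphamine over DMSO in *Pparg-cKO* ureters (x axis), red for raised, blue for lowered and gray for not called. Black bars mark the list's median in *Pparg-cKO* and open diamonds that in control ureters, from -1.35 for mucosal defense and cytokines to 0.75 for the 10 genes of the ureteric mesenchyme in *Pparg-cKO*.

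Over all genes, the most strongly raised ones measured in all 4 pools were *Lppr5*, *Ajap1*, *Gpc3*, *Meox2* and *Klf14*, with log2 ratios of 2.89, 2.86, 2.84, 2.68 and 2.66. *Ajap1*, a membrane protein of adherens junctions, had log2 levels of 9.01 and 9.31 with DMSO and of 11.88 and 12.17 with purmorphamine. *Ntrk3*, the receptor of neurotrophin 3, *Mest*, an imprinted gene of mesoderm, *Dner*, a membrane protein with EGF repeats, and the methyltransferase *Inmt* rose by log2 ratios of 2.44, 2.44, 2.52 and 2.26. Large decreases outside the lists were those of *Arg1*, the arginase of macrophages (-3.49), *Col6a5* (-3.46, with -0.52 and no call on its second probe), *Tnfsf11*, which encodes RANKL (-3.40), *Tnfaip6*, a hyaluronan-binding protein of inflammation (-3.15), *Aoc1*, the enzyme that degrades histamine (-3.09), and the monocyte chemokine *Ccl12* (-2.87), all as log2 ratios. *Tfpi2*, a protease inhibitor, had log2 ratios of -2.48 and -3.52. Several genes crossed the background. *Colec10*, a collectin, was not well above background in either DMSO pool and its level with purmorphamine was at least 6.19-fold higher (adjusted p = 0.0159). *Il13* and *Il9*, cytokines of type 2 immunity, were well above background in the DMSO pools alone and were at least 4.56-fold and 4.17-fold lower with purmorphamine (adjusted p = 0.0108 and 0.0173). These bounds set the mean of the bright pools against the mean of the dim pools. Where a dim pool's level lay under the lowest level measured above background in that pool, this lowest level replaced it.

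The same genes were then read in control ureters. No pool entered both comparisons, but the controls were littermates, all arrays were on 1 slide, and arrays with the same number share sex and dye orientation. In control ureters 57 genes were raised (0.282%) and 186 lowered (0.919%). Of the 374 genes raised in the mutant, 368 had positive ratios on both control arrays (30.9% of all genes did), and of the 568 lowered genes 533 had negative ratios on both (28% of all genes did). Called in both genotypes were 55 raised and 161 lowered genes. The control change was the smaller one for 348 raised and 432 lowered genes, with a median log2 ratio of 0.69 against 1.03 and of -0.80 against -1.07. These genes were selected for their change in the mutant, so that a smaller value in the control is partly a product of the selection. Both mutant ratios lay above both control ratios in 245 of the raised genes and below them in 262 of the lowered genes, which 11.6% and 14.2% of all genes did. The test of the difference itself called 0 genes, with a lowest adjusted p of 0.983 in limma. At an unadjusted p under 0.05, 320 genes were higher and 351 lower in the mutant. No gene is therefore shown to respond differently in the mutant.

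The hedgehog targets had larger ratios in the mutant than in the control for *Ptch1* and *Hhip*, without a call. *Hhip* had log2 ratios of 2.21 and 2.16 on the mutant and of 1.72 and 0.93 on the control arrays, and the difference of 0.86 (standard error 0.29) had an unadjusted p of 0.0293. *Ptch1* had 1.63 and 1.62 against 0.83 and 1.16, and *Gli1* had 1.31 and 1.37 against 1.57 and 0.56, where the genotypes overlapped. Superficial urothelial genes had a median log2 ratio of 0.47 in the mutant and 0.30 in the control. *Krt20* had log2 ratios of 1.94 and 2.91 against 1.12 and 1.17, and *Fa2h* of 1.09 and 1.52 against 0.00 and 0.19. *Upk3a*, with 0.34 and 0.60 against 0.49 and 0.45, and *Upk2*, with 0.72 and 0.96 against 0.76 and 0.59, overlapped between genotypes. The medians of the mucosal defense and cytokine list were -1.35 in the mutant and -1.02 in the control, and those of the macrophage list -0.76 and -0.85. The squamous list had -0.90 in the mutant and -0.19 in the control, and the glomerular list -0.85 and -0.04.

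Among the genes called in the mutant, some stood far from the control. *Ibsp*, a matrix protein of bone, had log2 ratios of 1.67 and 1.63 in the mutant and of 0.32 and 0.02 in the control, and *Rbp4* had 1.73 and 1.66 against 0.66 and 0.34. *Thbs1*, which encodes thrombospondin 1, had 0.85 and 0.86 against 0.00 and -0.23. *Tac2*, a tachykinin, had -2.12 and -3.34 against -0.28 and 0.84. *Slc34a2*, a phosphate transporter, was not well above background in the purmorphamine pools of either genotype, and was at least 5.25-fold lower with purmorphamine in the mutant. Its log2 levels with DMSO were 8.49 and 9.30 in the mutant and 6.51 and 6.60 in the control, where the female pool was not well above background. The size of any decrease of *Slc34a2* in the control is therefore limited by the background. In the other direction *Retnla*, a product of alternatively activated macrophages, had log2 ratios of -1.41 and -1.79 in the mutant against -2.76 and -3.11 in the control. *Pla2g4c*, a phospholipase, had log2 levels of 8.10 and 9.24 in the mutant and of 12.13 and 11.24 in the control DMSO pools, and was not well above background in the female mutant purmorphamine pool, so that the size of its decrease in the mutant is limited by the background. The adjusted p of the difference was above 0.98 for each of these genes.

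**Figure D5:**
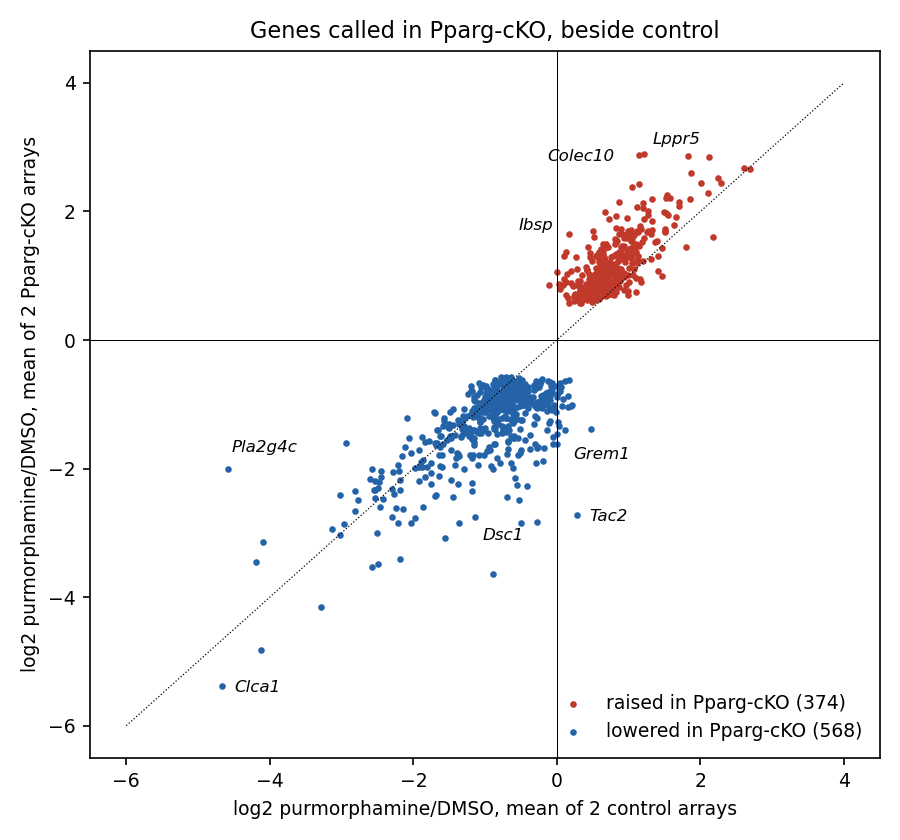
Each point is a gene called in *Pparg-cKO* ureters, at its mean log2 ratio of purmorphamine over DMSO in control (x axis) and *Pparg-cKO* ureters (y axis), red for the 374 raised and blue for the 568 lowered genes. The dotted line marks equal ratios, most genes lie on the same side of 0 in both genotypes, with 368 raised and 533 lowered genes doing so on both control arrays, and *Tac2*, *Grem1* and *Ibsp* lie far from the line. The positions of *Dsc1*, *Colec10* and *Pla2g4c* are not exact, since some of their pools were not well above background.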

How the data were processed

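Ureters were pooled by sex, and labeled cRNA of a DMSO and a purmorphamine pool was hybridized to each of the 4 arrays, on 1 slide. Per the file headers, the mean and background intensity of each spot and dye are unnormalized, and the processed intensity was background subtracted and dye normalized by the scanner software. The deposited log10 ratio was compared with the processed signals and is red over green. This comparison does not check which treatment each dye carried. The score deposited in the series table is a signed fold change whose normalization is not given in the sources used here. The submitters' processing notes name Agilent Feature Extraction 10.7.3.1. Gene names are those of the files.

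Mean intensities were corrected with normexp (offset 50), loess normalized within arrays and averaged over the 4 spots of a probe, and the log2 ratio of purmorphamine over DMSO was fitted in limma (3.58.1, R 4.3.3) with a coefficient per genotype and a spread shared by the 4 arrays. Of 39429 probes, the 27066 that rose above background in the 2 pools of some group were tested. P-values were adjusted after Benjamini and Hochberg at a threshold of 0.05, and the brightest probe stood for a gene. A gene was raised or lowered if it passed this threshold. The log2 levels are channel intensities after Aquantile normalization between arrays. Per channel, 66.3% to 70.5% of 157716 spots exceeded background clearly, and no spot was saturated. The number of arrays limits the precision. The rule of the methods used processed signals scaled to a 75th percentile of 1500 with a floor of 15, an intensity above 100 and a fold change of 1.5 on both arrays. The fit was tested on simulated data.

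Named were the 15 largest called changes in each direction measured in all 4 pools, the hedgehog list, up to 4 called members of each other list in each direction, the 5 genes in each direction farthest from the control, and 5 in each direction by their bound over background. Some genes counted in the lists are not reported here by name. Other list members are named to describe their list and were chosen after their values were seen. The lists and the genes were chosen with earlier results of these data known. The 26 lists hold 707 tested genes, with 72 of the raised and 71 of the lowered genes. Alternatives were tried for the intensities, normalization, filter, probe choice, replicate block and each array.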

Additional observations from a re-analysis of the deposited data

Results flagged for a closer look

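Some results had ratios of one direction on both *Pparg-cKO* arrays and of the opposite direction on both control arrays. The difference between the genotypes was tested for the genes by the limma contrast and was called for none, with adjusted p-values above 0.98. *Grem1*, the BMP antagonist, had log2 ratios of -0.91 and -1.90 in the mutant and of 0.12 and 0.10 in the control, a difference of -1.51. *Fgfr4* had -0.83 and -1.01 against 0.08 and 0.07, a difference of -0.998 on the log2 scale, on 1 of its 2 probes, the second of which had a mutant log2 ratio of -0.14 and no call. The coreceptor *Gas1* had -0.16 and -0.20 against 0.45 and 0.38, a difference of -0.59, and the kinase *Stk36* had -0.06 and -0.01 against 0.39 and 0.10, a difference of -0.28, on the same scale. Further probes had mutant log2 ratios of -0.09 and 0.06 for *Gas1* and of 0.035 for *Stk36*. The median log2 ratio of the retinoic acid list was 0.0596 in the mutant, positive on both arrays, and negative on both control arrays (-0.09 and -0.10), and this difference of medians was not tested.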

How the results depend on the processing

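The counts of called genes depended on the intensities, the filter and the female array, and the cause was not tested. In *Pparg-cKO* ureters, beside 374 raised and 568 lowered genes, limma called 0 and 0 on processed signals without loess, 0 and 0 on the series table (unadjusted p under 0.05 for 2226 and 2115) and 123 and 166 with no filter on dim probes. The separate-channel fit, which has no replicate block, called 587 raised and 645 lowered genes. With an array left out the counts were 45 to 418 raised and 119 to 669 lowered, the lowest without the female mutant array. The fit with the replicate block called 351 and 554 genes, of which 290 and 425 were shared with the counts above. The replicate number stands for sex and dye, and the deviations of same-numbered arrays had an r of 0.16. Fits without background correction, with median centring, on probes above background in all 8 pools, on means over probes and on the mutant arrays alone gave 349 to 418 raised and 418 to 669 lowered genes.

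In control ureters, beside 57 and 186, the counts were 173 raised and 119 lowered with median centring, which shifted the median of all genes to 0.14, 0 and 0 on processed signals, 0 and 0 on the series table, 0 and 0 with no filter (unadjusted 2475 and 2412) and 97 raised in the separate-channel fit. With an array left out they were 0 to 213 raised and 0 to 393 lowered. The difference between genotypes had 0 calls in each fit except without the male mutant array, where 0 genes were higher and 39 lower, so that leaving out an array gave 0 to 39 lower genes. The rule of the methods gave 194 raised and 276 lowered genes at a fold change of 2, and with an array left out 843 to 1452 raised and 1044 to 1558 lowered. Of the 120 named genes that were called, none changed direction in these fits. With an array left out or the replicate block added this was fixed in advance, since both mutant ratios of each called gene had the same sign. All 120 lost their call on processed signals and on the series table, 74 with no filter, 22 with the replicate block and 24 with median centring. More of them lost it without the female than without the male mutant array. In the fits that remain 5 to 15 lost it, except that none of 103 did on probes above background in all 8 pools. List medians changed sign in some fit for fat cells, erythroid cells and the pan-urothelial list alone among the 26.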

Other observations

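The skeletal muscle list, of which 8 of 15 genes were tested, held 2 raised genes, against 3 without replicate 1 and 0 without replicate 2. *Casq1*, the calcium store protein of muscle, had log2 levels of 8.76 and 8.34 in the male and female DMSO pools of *Pparg-cKO* ureters and of 10.03 and 10.86 in the purmorphamine pools, and *Actn3* had log2 ratios of 0.60 and 0.80. The myosins *Myh1*, *Myh2*, *Myh3* and *Myh4* and the factors *Myog* and *Myod1* were well above background in none of these pools. In 15 genes, grouped after their values were seen, the female log2 ratio lay more than 3 above the male one. They include *Adipoq*, *Cfd*, *Cidec*, *Retn* and *Adrb3* of the fat cell list and the preadipocyte gene *Dlk1*, with log2 ratios of -1.89 (male) and 2.40 (female). None of the 15 was called, which follows in part from their selection by the gap between the arrays.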
